A study of Homo sapiens with 9 samples.

Results

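The genes described here are 40 nucleolar factors that make, modify and assemble ribosomal RNA, chosen by name as a classic output of the transcription factor MYC, and all 40 were found by symbol among the 58735 genes of the deposited table. RNA was sequenced from H1299, an established human lung cancer line, in 3 groups of 3 libraries. Vector is labelled wild type and carries the lentiCRISPR v2 plasmid without a knockout. KO1 and KO2 are BCKDK knockout lines made by CRISPR editing, each grown from 1 cell after limiting dilution. Vector is not described as monoclonal, so an effect of the knockout and an effect of picking 1 cell cannot be told apart. The labels do not say whether replicate libraries trace to separate cultures. A p-value here therefore refers to the variation seen among libraries, and that variation may be technical. The series title links BCKDK, a kinase of branched-chain amino acid breakdown, to BCLAF1, MYC, HK2 and resistance to the MEK inhibitor Trametinib, and the comparison asks where ribosome factors stood in knockout cells.

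Ribosomes are built in the nucleolus. RNA polymerase I transcribes a long precursor RNA, small nucleolar ribonucleoproteins (snoRNPs) guide its methylation and pseudouridylation, and the small and large subunits are then cut out and assembled by separate sets of factors. Growing cancer cells make these factors at a high rate, and MYC is known to bind many of their promoters at the E-box CACGTG.

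That motif was searched in RefSeq promoters of build GRCh38.p14, from 250 bases before to 50 after each listed start. It reads the same on both strands, so 1 search covers both. Promoters were listed for 34 members, with none for NOLC1, NOP58, RRP12, RRP1B, BOP1 and DDX18. CACGTG stood in a promoter of 14 of those 34 genes (41.2%), against 8.77% of all 27305 genes with a listed promoter and 26.0% of 100 further ribosome assembly genes. The letters follow for the members that carry the motif and passed a test in at least 1 comparison. Other members passed a test too. Of these, DKC1, RRN3, WDR74, NOP56, NHP2 and NIP7 had no CACGTG in a listed promoter. NOLC1, NOP58 and RRP1B had no listed promoter. Capitals mark CACGTG, and up to 12 bases are shown on either side.
FBL (chr19:39846356-39846385, minus strand): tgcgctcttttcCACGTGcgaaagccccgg
NOC3L (chr10:94362903-94362932, minus strand): tagggacttcggCACGTGtgtcattccccg
BYSL (chr6:41921515-41921544, plus strand): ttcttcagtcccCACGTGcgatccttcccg
NOP14 (chr4:2963374-2963403, minus strand): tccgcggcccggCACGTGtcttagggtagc
GAR1 (chr4:109815781-109815810, plus strand): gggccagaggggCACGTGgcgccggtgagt
DDX21 (chr10:68956604-68956633, plus strand): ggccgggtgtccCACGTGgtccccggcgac
UTP20 (chr12:101280083-101280112, plus strand): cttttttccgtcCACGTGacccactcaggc
NOL6 (chr9:33473894-33473923, minus strand): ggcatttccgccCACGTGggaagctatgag
RRP9 (chr3:51941892-51941921, minus strand): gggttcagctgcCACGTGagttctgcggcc
MYBBP1A (chr17:4555340-4555369, minus strand): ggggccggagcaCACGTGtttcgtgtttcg
In FBL the first base of the motif lay 7 bases into the transcript counted from the listed start, in RRP9 5 bases before the start and in UTP20 10 bases before it. Across these genes the motif sat both in members that fell and in members that rose. Among genes with a listed promoter it was in 6 of the 10 lower in KO2 than in Vector and in 3 of the 3 lower in KO1. It was in 3 of the 5 higher in KO1 and in 6 of the 11 lower in KO2 than in KO1. The 1 gene higher in KO2 than in Vector and the 1 higher in KO2 than in KO1 also held it. Of the 18 called in no comparison 4 held it, among them NOP2, which was too low to be fitted. A match says only that these letters are present.

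Values are FPKM, reads per length of exon and per size of library, and whole reads recovered from them gave 16002212 to 17090445 reads per library. BCKDK fell from 14.7 ± 2.47 FPKM in Vector to 1.88 ± 0.201 in KO1 (log2 -2.44, SE 0.14, adjusted p = 3.63e-06) and 0.497 ± 0.184 in KO2 (log2 -3.39, SE 0.14, adjusted p = 1e-06; SD, n = 3). Of the lineage markers checked, VIM was at 454 to 817 FPKM in every library, whereas EPCAM, CDH1, NKX2-1, SFTPB and SFTPC were at most 0.169 FPKM, NAPSA at most 0.514, MUC1 0.412 to 1.296 and KRT7 at most 1.24, so 8 of the 10 epithelial and lung adenocarcinoma markers were near 0 or low. Leukocyte and endothelial markers were at most 0.294 FPKM. KRT7 averaged 0.0996 FPKM in Vector against 0.906 in KO1 and 0.101 in KO2. The keratins KRT8 and KRT18 averaged 16.2 and 63.2 FPKM in Vector, 119.8 and 331 in KO1, and 16.2 and 92.2 in KO2, and their part in the differences between clones was not tested. Vector replicate 3 and KO2 replicate 3 stood apart. Chi-square per degree of freedom was 44.3 to 52.6 in pairs that held one of them and 2.44 to 6.84 in the other pairs within a group.

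In Vector replicate 3 the deviation ran with base composition. Among the 39 members that could be fitted, all 12 whose longest transcript has at least 55% GC lay above the Vector mean in this library (median 0.34 on the log2 scale), and all 14 with under 45% GC lay at or below it (median -0.29). Across these 39 genes, which share the library, Pearson's r between GC and the deviation was 0.93 in Vector replicate 3, -0.91 in Vector replicate 2 and -0.74 in Vector replicate 1. The 3 deviations sum to 0, so these are not independent. The knockout libraries had r of 0.49, 0.02 and -0.66 in KO1 and 0.40, -0.11 and -0.15 in KO2, so a trend with GC was not limited to Vector, and KO2 replicate 3 stood apart without a strong one. The results below are given with all 9 libraries, and the counts again without these 2.

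**Figure D1:**
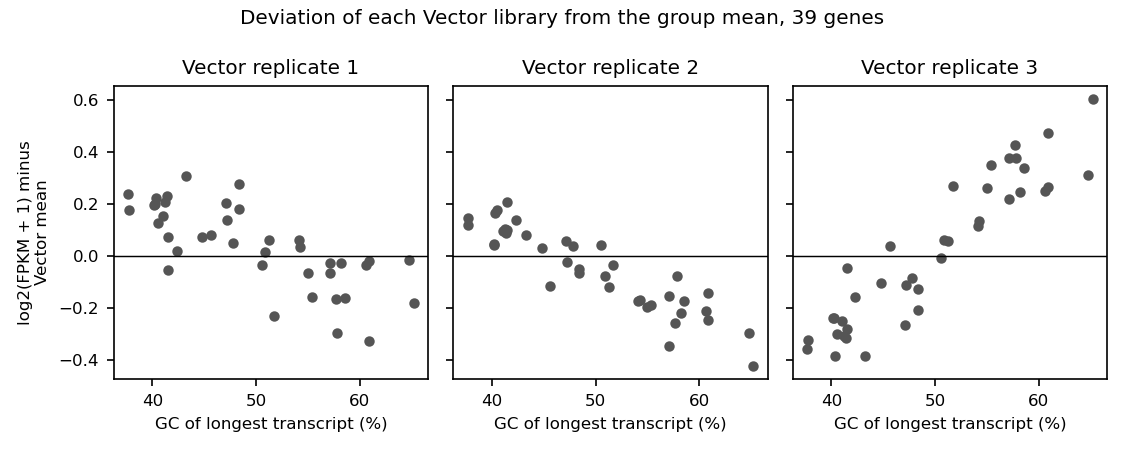
Deviation of each Vector library from the mean of the 3 Vector libraries, in log2(FPKM + 1), against the GC content of the longest transcript; each point is 1 of 39 genes. In Vector replicate 3 the points climb with GC (r = 0.93), and in replicates 1 and 2 they fall (r = -0.74 and -0.91).

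In KO1 the nucleolar genes moved both ways, and in KO2 those that moved nearly all fell. Genes were called at an adjusted p under 0.05 in limma on log2(FPKM + 1), with adjustment over all 16426 genes of at least 0.5 FPKM on average. Of the 39 members fitted, 6 rose and 5 fell in KO1 against Vector, that is 15.4% and 12.8%, beside a background of 17.4% of all genes called higher and 16.7% called lower (34.1% either way). These shares are near the background. With values rescaled to TPM the split in KO1 was 2 higher and 8 lower, beside 12.8% and 20% of all genes. In KO2 against Vector 1 rose and 12 fell, that is 2.56% and 30.8%, beside 12.9% and 15.0% of all genes (27.9% either way). KO2 lay below KO1 in 13 members and above it in 1, that is 33.3% and 2.56%, beside 16.4% and 14.5% of all genes (30.9% either way). Genes of at least 5 FPKM on average, as most members are, leaned the same way between the clones. Of these 7478 genes 25.5% were called lower in KO2 than in KO1 and 12.5% higher, with a median of -0.14. The 37 members at that level had 37.8% lower, 2.7% higher and a median of -0.28. The median difference of the 39 was 0.04 in KO1 and -0.22 in KO2 against Vector, and -0.26 between the clones, where the medians of all genes were 0.01, 0.00 and -0.02. Both clones were compared with the same Vector libraries. In bulk RNA a smaller number of expressing cells and less RNA per cell cannot be told apart.

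Counted by levels, all 3 KO1 libraries lay above all 3 Vector libraries in 7 of 40 members and below them in 9 (26.0% and 24.1% of all genes). The KO2 libraries lay above in 1 and below in 13 (18.3% and 20.7%). KO2 lay wholly above KO1 in 1 member and wholly below it in 21 (24.8% and 28.8%). By library, the median deviation of the 39 from the Vector mean was 0.08, 0.04 and -0.04 in KO1 and -0.29, -0.25 and -0.16 in KO2, and 9, 9 and 13 of the 39 lay above that mean in the KO2 libraries. So the shift in KO2 was present in each library, least in replicate 3. Together the 40 genes took up 0.586% to 0.656% of all FPKM in Vector, 0.516% to 0.534% in KO1 and 0.512% to 0.532% in KO2, and NPM1 held the largest part of it. The 3 members of at least 100 FPKM on average were NPM1, FBL and NCL. A further 34 had 5 to 100 FPKM, and POLR1C, DDX10 and NOP2 had less.

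**Figure D2:**
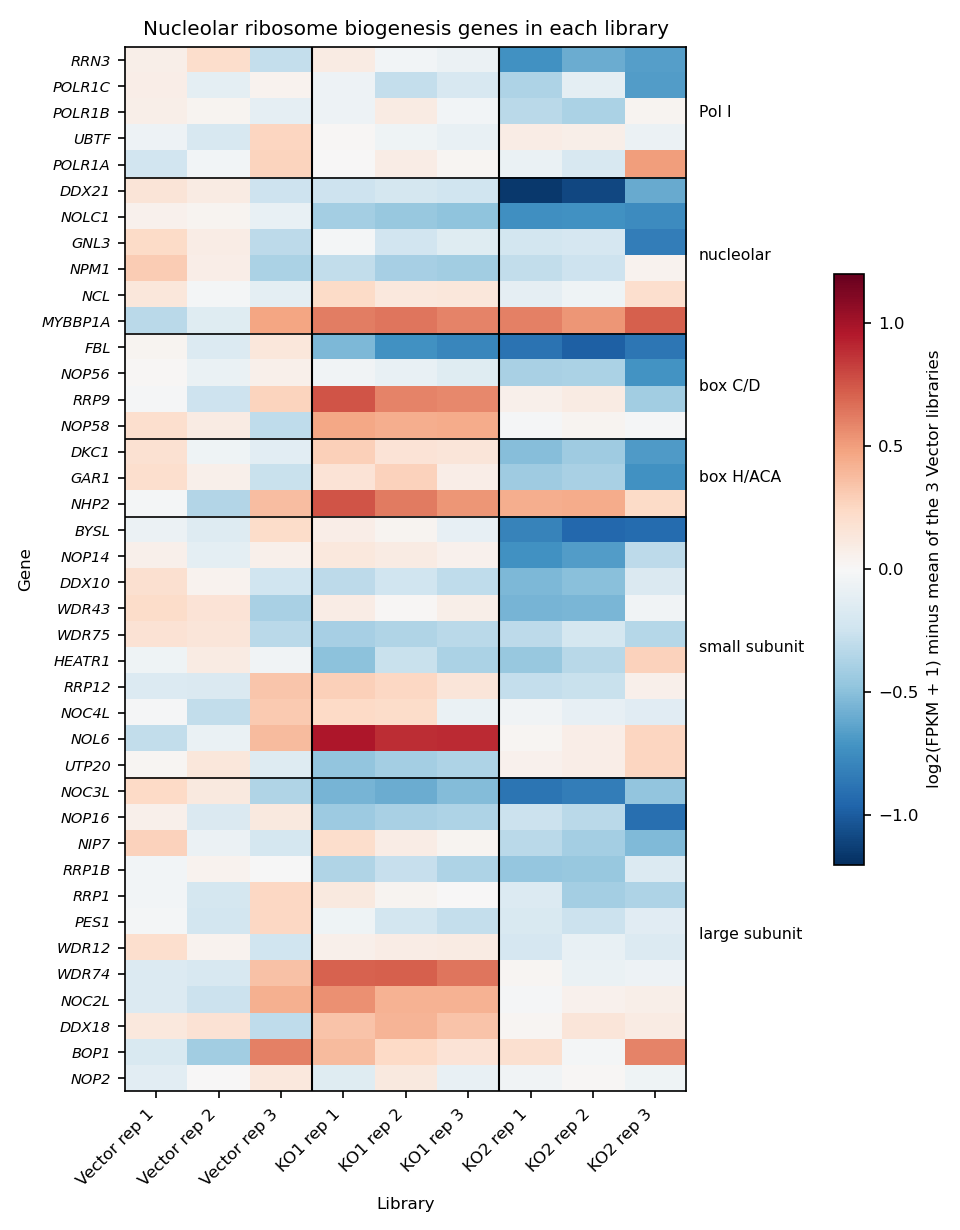
Each of the 40 genes (rows, grouped by role) in each of the 9 libraries (columns), as log2(FPKM + 1) minus the mean of the 3 Vector libraries. KO1 columns hold both red and blue cells, and KO2 columns are mostly blue, with MYBBP1A red in all 6 knockout libraries.

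**Figure D3:**
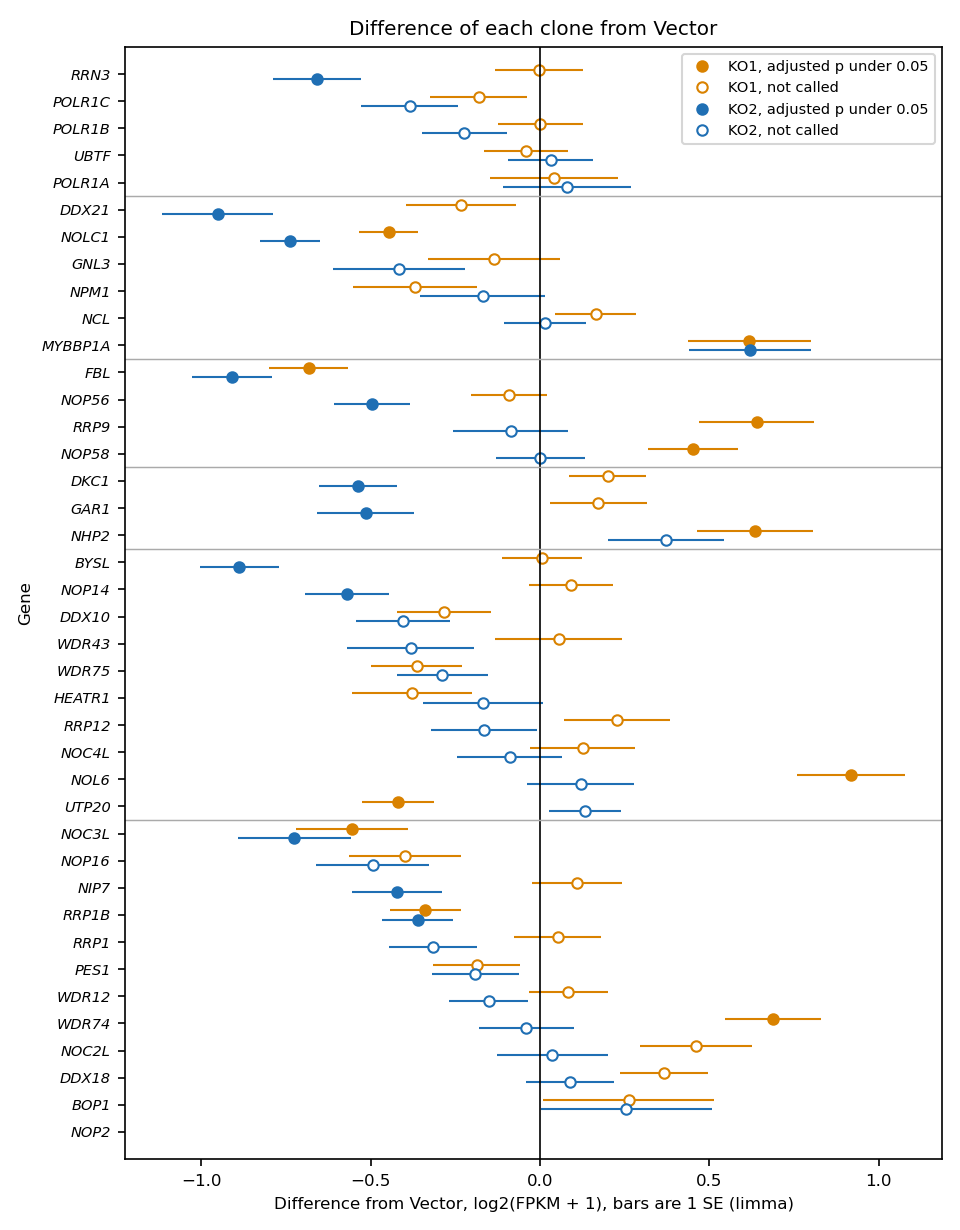
Difference of KO1 (orange) and KO2 (blue) from Vector for each gene on the log2(FPKM + 1) scale; bars are 1 SE, and filled points have an adjusted p under 0.05. In KO1 6 filled points lie right of 0 and 5 left of it; in KO2 1 lies right and 12 left. NOP2 was not fitted.

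Of the 5 RNA polymerase I genes 1 passed a test, the initiation factor RRN3 in KO2. That is 20% lower in KO2, near the 15.0% of all genes. In KO1 no gene of this group was called, where 34.1% of all genes were called either way. RRN3, which brings the polymerase to the ribosomal DNA promoter (ENSG00000085721, chromosome 16, 15060022 to 15094317, minus strand of hg38), measured 17.03, 18.8 and 13.1 FPKM in the Vector libraries, 17.4, 15.7 and 15.3 in KO1 and 9.37, 10.4 and 9.87 in KO2. Every KO2 library lay below every other library, and KO1 overlapped Vector. RRN3 fell in KO2 (log2 -0.66, SE 0.13, adjusted p = 0.00571) and was lower there than in KO1 (log2 -0.66, SE 0.13, adjusted p = 0.00512). Genes within 5 Mb of it had medians of -0.31 and -0.37 in the same comparisons, and with these subtracted neither value passed (adjusted p = 0.0888 and 0.147). GENCODE lists 3 pseudogenes named for RRN3, so its reads may have been split between copies. UBTF, which coats active ribosomal DNA and had the highest mean level of this group, measured 16.2, 14.7 and 20.6 FPKM in the Vector libraries, 17.2, 16.4 and 15.9 in KO1 and 18.2, 17.9 and 16.2 in KO2. The groups overlapped and UBTF passed in neither clone (adjusted p = 0.828 and 0.876). The subunits POLR1A, POLR1B and POLR1C passed no test with all 9 libraries either. Their means were 9.46, 11.5 and 5.49 FPKM in Vector and 10.2, 9.76 and 4.02 in KO2.

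Among the abundant and organising proteins of the nucleolus, NOLC1 fell in both clones, DDX21 fell in KO2 and MYBBP1A rose in both. Of these 6 genes 16.7% rose and 16.7% fell in KO1, near the 17.4% and 16.7% of all genes. In KO2 16.7% rose and 33.3% fell, beside 12.9% and 15.0% of all genes. NOLC1, a chaperone of snoRNPs (ENSG00000166197, chromosome 10, 102152176 to 102163871, plus strand), measured 62.5, 61.99 and 56.9 FPKM in the Vector libraries, 45.4, 43.7 and 43.05 in KO1 and 35.9, 36.1 and 35.3 in KO2. The 3 groups did not overlap, with KO2 lowest. NOLC1 fell in KO1 (log2 -0.45, SE 0.09, adjusted p = 0.0043) and in KO2 (log2 -0.74, SE 0.09, adjusted p = 0.000352), and KO2 was below KO1 (log2 -0.29, SE 0.09, adjusted p = 0.0324). DDX21, an RNA helicase that acts in polymerase I transcription and rRNA processing (ENSG00000165732, chromosome 10, 68956128 to 68985073, plus strand), measured 84.6, 81.3 and 63.8 FPKM in the Vector libraries, 63.6, 65.5 and 64.4 in KO1 and 33.5, 35.1 and 49.5 in KO2. All KO2 libraries were below all others, and Vector replicate 3 lay within the KO1 range. DDX21 fell in KO2 (log2 -0.95, SE 0.16, adjusted p = 0.00271), the largest fall among the members there, and KO2 was below KO1 (log2 -0.72, SE 0.16, adjusted p = 0.00949). MYBBP1A, a nucleolar MYB-binding protein with a part in rRNA processing (ENSG00000132382, chromosome 17, 4538897 to 4555631, minus strand), measured 9.56, 10.98 and 17.4 FPKM in the Vector libraries, 19.3, 19.6 and 19.03 in KO1 and 19.2, 18.1 and 20.8 in KO2. Every knockout library was above every Vector library, though the Vector values themselves ran from 9.56 to 17.4 with the highest in replicate 3. MYBBP1A rose in KO1 (log2 0.62, SE 0.18, adjusted p = 0.0266) and in KO2 (log2 0.62, SE 0.18, adjusted p = 0.0312). Neither call held with the medians of genes within 5 Mb subtracted (adjusted p = 0.217 and 0.15), and of the 9 fits without 1 library 8 lost the KO2 call.

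NPM1, NCL and GNL3 of the same group passed no test with all 9 libraries. NPM1, the abundant phosphoprotein of the granular nucleolus and the highest of all members (ENSG00000181163, chromosome 5, 171387116 to 171411137, plus strand), measured 849.9, 726 and 526 FPKM in the Vector libraries, 561, 521 and 515 in KO1 and 559, 577 and 707 in KO2. The lowest Vector library, replicate 3, lay within the knockout range. Its differences were -0.37 in KO1 and -0.17 in KO2 (adjusted p = 0.15 and 0.529), against -0.56 and -0.47 without the 2 libraries that stood apart, where both passed (adjusted p = 0.0017 and 0.007). GENCODE lists 45 pseudogenes named for NPM1, so reads may have been split between copies. Among the called members it also lists 3 each for NOP56 and NIP7 and 2 for NHP2, beside those of RRN3. NCL, nucleolin, averaged 122 ± 11.1 FPKM in Vector against 137 ± 5.59 in KO1 and 124 ± 14.6 in KO2 (SD, n = 3). GNL3, the GTPase nucleostemin, averaged 29.6 ± 5.71, 26.5 ± 1.98 and 22.1 ± 5.299 FPKM in the same order.

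The 4 proteins tied to box C/D snoRNPs, which methylate rRNA and in the case of U3 help to cut it, went different ways. FBL, the methyltransferase fibrillarin (ENSG00000105202, chromosome 19, 39834458 to 39846414, minus strand), measured 188, 163 and 202 FPKM in the Vector libraries, 126, 111 and 106 in KO1 and 99.02, 92.6 and 100.3 in KO2. The 3 groups did not overlap, and the highest knockout library reached 126 FPKM against 163 in the lowest Vector library. FBL fell in KO1 (log2 -0.68, SE 0.12, adjusted p = 0.00214) and in KO2 (log2 -0.91, SE 0.12, adjusted p = 0.000586), and the clones did not differ past the threshold (adjusted p = 0.177, interval -0.49 to 0.04). Genes within 5 Mb of FBL had medians of -0.42 and -0.46. With these subtracted FBL stood at -0.27 in KO1, which did not pass (adjusted p = 0.132), and at -0.45 in KO2, which did (0.0244).

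The scaffold proteins NOP56 and NOP58, which sit side by side in the same particle, differed in their pattern. NOP56 (ENSG00000101361, chromosome 20, 2652145 to 2658393, plus strand) measured 34.2, 32 and 35.2 FPKM in the Vector libraries, 32.7, 31.7 and 30.4 in KO1 and 25.5, 25.7 and 20.2 in KO2. All KO2 libraries were below all others, and NOP56 fell in KO2 (log2 -0.50, SE 0.11, adjusted p = 0.0107) and lay below KO1 (log2 -0.40, SE 0.11, adjusted p = 0.0237). NOP58 (ENSG00000055044, chromosome 2, 202265716 to 202303666, plus strand) measured 47.02, 43.7 and 32.6 FPKM in the Vector libraries, 56.6, 55.5 and 55.8 in KO1 and 40.2, 41.6 and 40.2 in KO2. Here KO1 was above all other libraries and KO2 overlapped Vector. NOP58 rose in KO1 (log2 0.45, SE 0.13, adjusted p = 0.0264) and was lower in KO2 than in KO1 (log2 -0.45, SE 0.13, adjusted p = 0.0287). RRP9, a U3-specific protein (ENSG00000114767, chromosome 3, 51933430 to 51941941, minus strand), measured 15.3, 12.9 and 18.8 FPKM in the Vector libraries, 26.8, 23.9 and 23.6 in KO1 and 16.2, 16.6 and 11.3 in KO2. Again KO1 lay above all other libraries. RRP9 rose in KO1 (log2 0.64, SE 0.17, adjusted p = 0.0177) and was lower in KO2 than in KO1 (log2 -0.73, SE 0.17, adjusted p = 0.0109).

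Box H/ACA snoRNPs carry out pseudouridylation, and of their 3 members DKC1 and GAR1 fell in KO2, while NHP2 rose in KO1. Over all genes 15.0% were lower in KO2 and 17.4% higher in KO1, and 3 genes are few. DKC1, the pseudouridine synthase dyskerin (ENSG00000130826, chromosome X, 154762742 to 154777689, plus strand), measured 33.7, 28.5 and 26.98 FPKM in the Vector libraries, 36.3, 33.3 and 32.9 in KO1 and 20.5, 21.8 and 18.1 in KO2. GAR1, a core protein of the same particle (ENSG00000109534, chromosome 4, 109815510 to 109824740, plus strand), measured 17.97, 16.1 and 12.7 FPKM in the Vector libraries, 17.5, 18.9 and 16.4 in KO1 and 11.2, 11.6 and 8.97 in KO2. For both genes all KO2 libraries were below all others, while KO1 and Vector overlapped. DKC1 fell in KO2 (log2 -0.54, SE 0.11, adjusted p = 0.00809) and GAR1 fell there too (log2 -0.51, SE 0.14, adjusted p = 0.0259). KO2 was below KO1 in DKC1 (log2 -0.74, SE 0.11, adjusted p = 0.00143) and in GAR1 (log2 -0.69, SE 0.14, adjusted p = 0.00644). NHP2, the small protein that binds next to dyskerin (ENSG00000145912, chromosome 5, 178149460 to 178153967, minus strand), measured 31.2, 24.8 and 41.5 FPKM in the Vector libraries, 54.4, 49.5 and 46.2 in KO1 and 43.4, 43.8 and 37.4 in KO2. KO1 lay above all Vector libraries, and KO2 overlapped Vector replicate 3. NHP2 rose in KO1 (log2 0.63, SE 0.17, adjusted p = 0.0194) and did not pass in KO2 (adjusted p = 0.14). Of its exon bases 27.4% are shared with RMND5B on the other strand, and the strand setting of the counting is not given, so its level is uncertain.

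In the small subunit group 2 of 10 members (20%) fell in KO2, against 15.0% of all genes, and in KO1 1 rose and 1 fell (10% each), against 17.4% and 16.7%, so no excess stood out in this group. BYSL, the late maturation factor bystin (ENSG00000112578, chromosome 6, 41921188 to 41933046, plus strand), measured 15.7, 14.7 and 19.3 FPKM in the Vector libraries, 17.5, 16.9 and 15.3 in KO1 and 9.04, 8.12 and 8.19 in KO2. The highest KO2 library, at 9.04 FPKM, lay below the lowest of the others, at 14.7. BYSL fell in KO2 (log2 -0.89, SE 0.12, adjusted p = 0.000661) and lay below KO1 (log2 -0.89, SE 0.12, adjusted p = 0.000563), while KO1 against Vector gave an adjusted p of 0.975. NOP14, an early assembly factor (ENSG00000087269, chromosome 4, 2937933 to 2963385, minus strand), measured 37.6, 32.99 and 37.5 FPKM in the Vector libraries, 39.4, 38.5 and 37.3 in KO1 and 21.4, 22.2 and 28.7 in KO2. Again all KO2 libraries were below all others, with KO2 replicate 3 the closest to them. NOP14 fell in KO2 (log2 -0.57, SE 0.12, adjusted p = 0.00862) and lay below KO1 (log2 -0.66, SE 0.12, adjusted p = 0.00367), with 17.1% of its exon bases shared with the antisense gene NOP14-AS1.

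NOL6 and UTP20, both parts of the large particle that forms on the precursor RNA, moved in opposite directions in KO1. NOL6 (ENSG00000165271, chromosome 9, 33461441 to 33473930, minus strand) measured 5.45, 6.502 and 9.28 FPKM in the Vector libraries, 14.6, 13.6 and 13.7 in KO1 and 7.07, 7.35 and 8.46 in KO2. KO1 was above all other libraries, and KO2 overlapped Vector. NOL6 rose in KO1 (log2 0.92, SE 0.16, adjusted p = 0.00224), the largest rise among the members, and was lower in KO2 than in KO1 (log2 -0.80, SE 0.16, adjusted p = 0.00512). UTP20 (ENSG00000120800, chromosome 12, 101280109 to 101386616, plus strand) measured 9.401, 10.3 and 8.203 FPKM in the Vector libraries, 6.37, 6.72 and 6.93 in KO1 and 9.65, 9.87 and 11.3 in KO2. KO1 lay below all other libraries. UTP20 fell in KO1 (log2 -0.42, SE 0.11, adjusted p = 0.0151) and was the single member higher in KO2 than in KO1 (log2 0.55, SE 0.11, adjusted p = 0.00443). Its neighbours within 5 Mb had a median of -0.40 in KO1, close to its own difference. The other 6 of this group, NOC4L, RRP12, WDR43, WDR75, HEATR1 and DDX10, passed no test with all 9 libraries. WDR43, WDR75 and HEATR1 act early, close to transcription of the precursor, and RRP12 late. Vector means ran from 4.96 FPKM in DDX10 to 30.2 in WDR43.

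**Figure D4:**
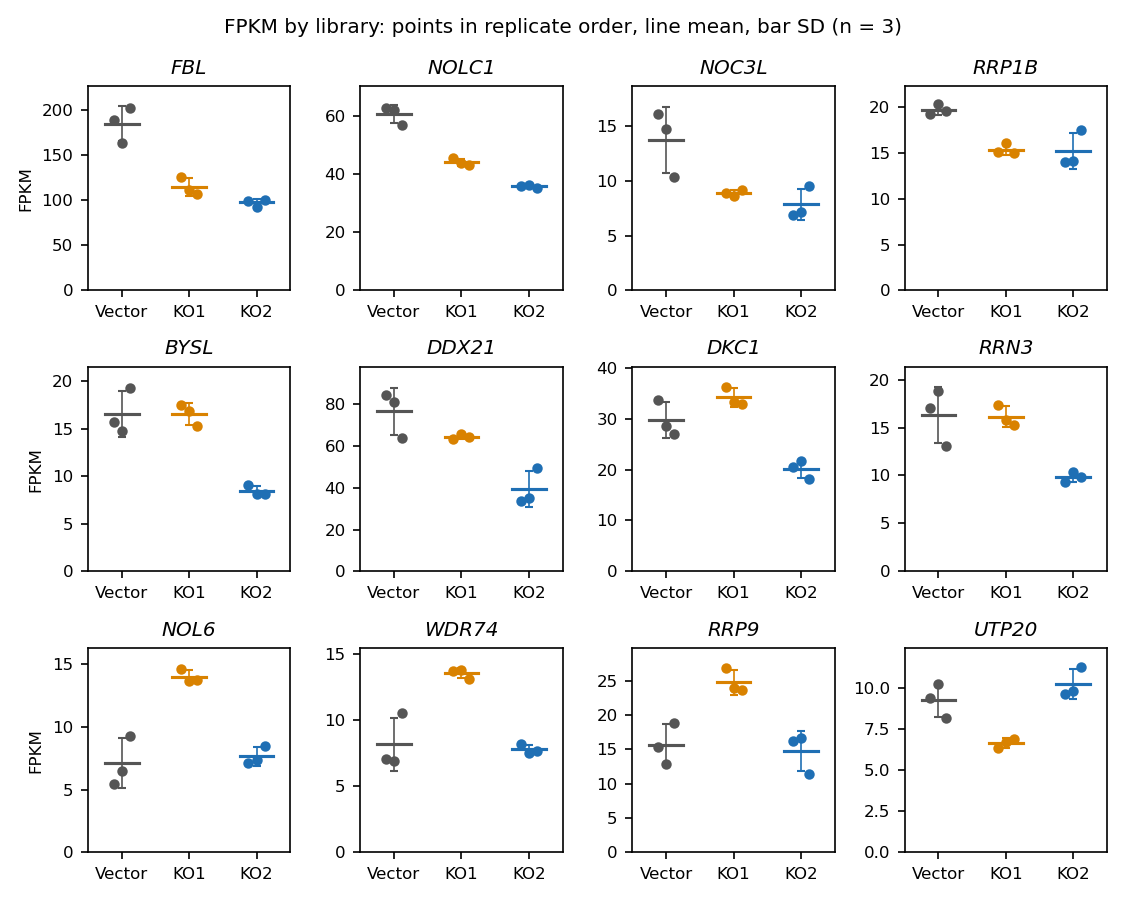
FPKM of 12 genes in each library; points are the 3 libraries of a group, lines their mean and bars the SD (n = 3). FBL and NOLC1 are lower in both clones, BYSL, DDX21, DKC1 and RRN3 are lowest in KO2, and NOL6, WDR74 and RRP9 are highest in KO1.

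Among the 12 large subunit factors, of which 11 were fitted, NOC3L and RRP1B fell in both clones, NIP7 fell in KO2 and WDR74 rose in KO1. That is 9.09% higher and 18.2% lower in KO1, below or near the 17.4% and 16.7% of all genes. In KO2 27.3% were lower, beside 15.0% of all genes. NOC3L, which works in a pair with NOC2L on early large subunit precursors (ENSG00000173145, chromosome 10, 94333226 to 94362959, minus strand), measured 16.1, 14.8 and 10.3 FPKM in the Vector libraries, 8.89, 8.61 and 9.14 in KO1 and 6.91, 7.15 and 9.49 in KO2. Every knockout library was below every Vector library, with 9.49 FPKM in KO2 replicate 3 next to 10.3 in Vector replicate 3. NOC3L fell in KO1 (log2 -0.56, SE 0.17, adjusted p = 0.0295) and in KO2 (log2 -0.73, SE 0.17, adjusted p = 0.0113). With neighbours' medians of -0.14 and -0.27 subtracted neither passed (adjusted p = 0.0978 and 0.0821). Its partner NOC2L averaged 22.8 ± 6.46 FPKM in Vector against 30.99 ± 1.65 in KO1 and 22.8 ± 0.779 in KO2 (SD, n = 3). NOC2L passed no test with all 9 libraries, and Vector replicate 3 lay inside the KO1 range.

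WDR74 (ENSG00000133316, chromosome 11, 62832342 to 62841809, minus strand), which acts in the release of a remodelling factor from large subunit precursors, measured 7.07, 6.899 and 10.5 FPKM in the Vector libraries, 13.7, 13.8 and 13.1 in KO1 and 8.14, 7.51 and 7.63 in KO2. KO1 lay above all other libraries. WDR74 rose in KO1 (log2 0.69, SE 0.14, adjusted p = 0.00541) and was lower in KO2 than in KO1 (log2 -0.73, SE 0.14, adjusted p = 0.00443). Of its exon bases 22.3% are shared with other genes, RNU2-2P and TEX54 on the same strand and AP001160.1 on the other, so its level is uncertain. RRP1B, a nucleolar protein of large subunit precursors, averaged 19.7 ± 0.552 FPKM in Vector against 15.3 ± 0.5897 in KO1 and 15.2 ± 1.99 in KO2 (SD, n = 3). It fell in KO1 (log2 -0.34, SE 0.10, adjusted p = 0.0336) and in KO2 (log2 -0.36, SE 0.10, adjusted p = 0.0309). Its paralogue RRP1, with means of 9.404, 9.695 and 7.303 FPKM, passed in neither. NIP7, a factor in the maturation of large subunit RNA (ENSG00000132603, chromosome 16, 69337996 to 69343111, plus strand), measured 12.8, 9.89 and 8.87 FPKM in the Vector libraries, 12.2, 11.1 and 10.6 in KO1 and 8.08, 7.58 and 6.89 in KO2. All KO2 libraries were below all others. NIP7 fell in KO2 (log2 -0.42, SE 0.13, adjusted p = 0.0411) and lay below KO1 (log2 -0.53, SE 0.13, adjusted p = 0.0147), with 20.2% of its exon bases shared with COG8 on the other strand.

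PES1, BOP1 and WDR12 form 1 complex (PeBoW) needed for large subunit maturation. With all 9 libraries none of these genes passed a test in any comparison. BOP1, the highest of the large subunit group, measured 30.8, 25.9 and 53.6 FPKM in the Vector libraries, 45.8, 41.6 and 39.4 in KO1 and 40.1, 34.5 and 53.4 in KO2. The highest of all were Vector replicate 3 and KO2 replicate 3, and the groups overlapped (adjusted p = 0.458 in KO1 and 0.491 in KO2). PES1 averaged 18.1 ± 3.12 FPKM in Vector against 15.6 ± 1.39 in KO1 and 15.6 ± 0.659 in KO2 (SD, n = 3). For WDR12 these means were 9.23 ± 1.53, 9.75 ± 0.133 and 8.14 ± 0.349. NOP16 and the helicase DDX18 passed no test with all 9 libraries. All 3 KO1 libraries of NOP16 and all 3 of its KO2 libraries were below Vector, and in DDX18 all 3 KO1 libraries were above it. NOP2, an rRNA cytosine methyltransferase, stood at only 0.5204, 0.482 and 0.489 FPKM and missed the filter. In GENCODE 54.4% of its exon bases are shared with AC006064.6 on the same strand, which is listed at 0 in every library.

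Set between the clones, the nucleolar genes that differed were lower in KO2 in 13 of 14 cases. Of all genes fitted 2693 were called lower in KO2 than in KO1 and 2386 higher. Among genes of at least 5 FPKM on average 1906 were lower and 933 higher, a lean the same way but less marked. The largest gaps among the members were in BYSL (log2 -0.89), NOL6 (-0.80), DKC1 (-0.74), WDR74 (-0.73) and RRP9 (-0.73). The tests against Vector split these genes. BYSL, DKC1, DDX21, GAR1, NOP14, NOP56, NIP7 and RRN3 passed against Vector in KO2 and not in KO1. NOL6, WDR74, RRP9 and NOP58 passed against Vector in KO1, where they rose, and not in KO2. NOLC1 passed in both. MYC, the factor after which the list was chosen, measured 86.3, 79.4 and 97.4 FPKM in the Vector libraries, 63.5, 57.1 and 54.7 in KO1 and 53.6, 50.9 and 26.1 in KO2. MYC fell in KO2 (log2 -1.06, SE 0.24, adjusted p = 0.0107) and did not pass in KO1 (log2 -0.58, adjusted p = 0.093) or between the clones (adjusted p = 0.161). Without the 2 libraries that stood apart its differences from Vector were -0.50 and -0.65 (adjusted p = 0.0014 and 0.00085).

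The wider ribosome assembly pathway was read from 5 lists with 120 genes, all of which were fitted. In KO1 13 rose and 13 fell (10.8% each, background 17.4% and 16.7%). In KO2 6 rose and 34 fell (5% and 28.3%, background 12.9% and 15.0%). KO2 was higher than KO1 in 1 gene and lower in 32 (0.833% and 26.7%, background 14.5% and 16.4%). The median of the 120 was 0.04 in KO1 and -0.20 in KO2, and in KO2 90 of the 120 values were negative.

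By list, 13 of 42 further large subunit factors fell in KO2 (31%) and 1 rose (2.38%), beside 15.0% and 12.9% of all genes. RPF2, which helps to load the 5S RNP, fell from 20.4 ± 5.22 to 7.59 ± 0.186 FPKM (SD, n = 3; log2 -1.29, SE 0.16, adjusted p = 0.000476), and BRIX1 from 10.3 ± 2.599 to 4.89 ± 0.77 (log2 -0.93, SE 0.17, adjusted p = 0.00411). NOP53 was the one that rose there (log2 0.79, SE 0.21, adjusted p = 0.0228), and it rose in KO1 as well (log2 1.16, SE 0.21, adjusted p = 0.003), where EIF6, which keeps free large subunits apart from small ones, rose from 79.5 ± 21.1 to 153 ± 5.704 FPKM (log2 0.97, SE 0.19, adjusted p = 0.00387). In KO1 7 of the 42 rose (16.7%) and 4 fell (9.52%), near or below the background of 17.4% and 16.7%. With the medians of genes within 5 Mb subtracted, the fall of BRIX1 (adjusted p = 0.0604) and the rise of NOP53 in KO2 (0.188) no longer passed, while the other values given here did.

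Of 43 further small subunit factors 10 fell (23.3%) and 2 rose (4.65%) in KO2, beside 15.0% and 12.9% of all genes. In KO1 4 rose and 4 fell (9.3% each), below the background of 17.4% and 16.7%. The kinase RIOK1 fell from 14.96 ± 3.18 to 9.89 ± 0.2696 FPKM in KO1 (log2 -0.53, SE 0.14, adjusted p = 0.0179) and to 6.83 ± 0.164 in KO2 (log2 -1.01, SE 0.14, adjusted p = 0.000925). Its neighbours within 5 Mb had a median of -0.46 in KO1, and with this subtracted RIOK1 stood at -0.07 there (adjusted p = 0.762), while the call in KO2 was kept. BUD23, an rRNA methyltransferase, fell in KO2 from 19.3 ± 2.22 to 9.89 ± 1.13 FPKM (log2 -0.90, SE 0.12, adjusted p = 0.000689). Of 15 genes of the exosome and nuclear RNA decay, 7 fell (46.7%) and 1 rose (6.67%) in KO2, beside 15.0% and 12.9% of all genes, and in KO1 1 fell (6.67%, background 16.7%) and the other 14 passed no test. The exosome subunit EXOSC5 fell in KO2 from 33.7 ± 9.59 to 11.8 ± 1.88 FPKM (log2 -1.41, SE 0.20, adjusted p = 0.000896), and the nuclease XRN2 fell in KO1 (log2 -0.72, SE 0.10, adjusted p = 0.000618) and in KO2 (log2 -0.54, SE 0.10, adjusted p = 0.00376).

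Polymerase I factors outside the 40 held 3 falls among 10 genes in KO1 and 3 in KO2, and the other 7 passed no test against Vector. That is 30% in each clone, beside 16.7% and 15.0% of all genes, and 3 genes are few. They were TAF1B and TAF1D, subunits of the promoter selectivity factor, and the subunit CD3EAP, in both clones. TAF1D fell from 17.7 ± 4.05 to 9.62 ± 0.378 FPKM in KO1 (log2 -0.79, SE 0.16, adjusted p = 0.00597) and CD3EAP from 3.74 ± 0.835 to 1.74 ± 0.4497 in KO2 (log2 -0.79, SE 0.16, adjusted p = 0.00684). Neighbours' medians subtracted, TAF1D did not pass in KO2 nor CD3EAP in KO1 (adjusted p = 0.157 and 0.0882). Of 10 snoRNP proteins and assembly factors 2 rose and 1 fell in each clone (20% and 10%), near the background of 17.4% and 16.7% in KO1 and 12.9% and 15.0% in KO2. RUVBL2 and PIH1D1, parts of the chaperone machinery that assembles snoRNPs, were those that rose, RUVBL2 from 38.7 ± 9.88 to 88.5 ± 6.89 FPKM in KO1 (log2 1.2, SE 0.17, adjusted p = 0.000658) and 64.05 ± 5.36 in KO2 (log2 0.74, SE 0.17, adjusted p = 0.0104). SNU13, which binds box C/D RNA directly, was the one that fell (log2 -0.47 in KO1 and -0.61 in KO2). With neighbours' medians subtracted, both rises in KO2 lost their call (RUVBL2 0.30, adjusted p = 0.227, and PIH1D1 0.34, adjusted p = 0.11), as did SNU13 in KO1 (adjusted p = 0.0774).

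Without Vector replicate 3 and KO2 replicate 3 more genes passed everywhere, and each member called with all 9 libraries stayed called in the same direction. In KO1 10 members rose and 13 fell (background 29.5% and 27.3%). In KO2 6 rose and 20 fell (background 24.1% and 25.4%), and KO2 was above KO1 in 1 and below it in 23 (background 21.6% and 26.1%). Members newly called lower in KO2 were POLR1B, NPM1, GNL3, WDR43, WDR75, HEATR1, DDX10 and WDR12, and newly called higher were UBTF, NHP2, NOL6, NOC2L and BOP1. The 5 that became higher in KO2 have 54.99% (UBTF) to 65.2% (BOP1) GC in the longest transcript. The 8 that became lower there have 37.7% (WDR75) to 44.8% (POLR1B). Newly called lower in KO1 were NPM1, GNL3, DDX21, WDR43, WDR75, HEATR1, DDX10 and NOP16. Newly called higher in KO1 were RRP12, NOC2L, BOP1 and DDX18. With all 9 libraries and a trend on GC and length removed from each, 8 members rose and 9 fell in KO1, and 2 rose and 18 fell in KO2. Calls also grew over all genes in that setting, to 23.7% higher and 22% lower in KO1 and 20.1% and 20.5% in KO2, and in KO1 the members are near those shares.

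**Figure D5:**
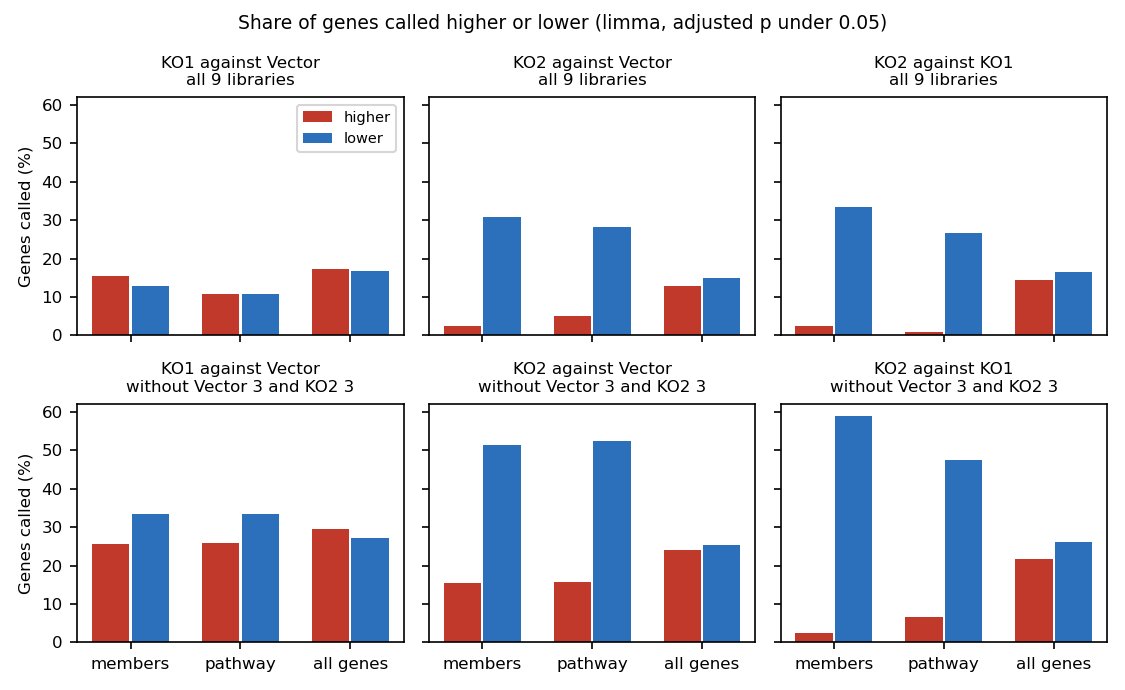
Percentage of genes called higher (red) or lower (blue) in each comparison among the 39 fitted members, the 120 further pathway genes and all 16426 fitted genes; the lower panels leave out Vector replicate 3 and KO2 replicate 3. For KO2 the members' blue bars (30.8% with all libraries) are above those of all genes (15.0%), and in KO1 the members' bars (15.4% and 12.8%) are near those of all genes.

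Several calls were lost when 1 library was left out, which also leaves fewer libraries to estimate the spread. In KO1 FBL, NOL6, NOLC1 and WDR74 kept their call whichever library was left out. MYBBP1A lost its call in KO1 without Vector replicates 1 or 2 or KO1 replicates 1, 2 or 3 (highest adjusted p = 0.0897, without Vector replicate 2). The call was lost for NHP2 without Vector replicates 1 or 2 or KO1 replicates 1 or 2 (highest adjusted p = 0.0732, without KO1 replicate 1), for NOC3L without Vector replicates 1 or 2 or KO1 replicates 1, 2 or 3 (highest adjusted p = 0.1, without Vector replicate 1) and for NOP58 without KO1 replicates 1, 2 or 3 (highest adjusted p = 0.0815, without KO1 replicate 1). It was also lost for RRP1B without Vector replicates 1 or 2 or KO1 replicates 1, 2 or 3 (highest adjusted p = 0.109, without KO1 replicate 3), for RRP9 without Vector replicates 1 or 2 or KO1 replicate 1 (highest adjusted p = 0.0669, without KO1 replicate 1) and for UTP20 without Vector replicate 2 or KO1 replicates 1 or 2 (highest adjusted p = 0.0631, without KO1 replicate 1). In KO2 BYSL, DDX21, DKC1, FBL, NOC3L, NOLC1, NOP14, NOP56 and RRN3 kept theirs. MYBBP1A lost it in KO2 without Vector replicates 1 or 2, KO1 replicates 1, 2 or 3 or KO2 replicates 1, 2 or 3 (highest adjusted p = 0.0999, without Vector replicate 1). GAR1 lost it without Vector replicates 1 or 2 or KO2 replicate 3 (highest adjusted p = 0.0889, without Vector replicate 1), NIP7 without Vector replicates 1 or 2, KO1 replicates 1, 2 or 3 or KO2 replicates 1, 2 or 3 (highest adjusted p = 0.114, without Vector replicate 1) and RRP1B without Vector replicates 1 or 2, KO1 replicates 1, 2 or 3 or KO2 replicates 1 or 2 (highest adjusted p = 0.11, without KO2 replicate 2). Between the clones 10 of 14 kept their call. NOLC1 lost it without KO1 replicates 1, 2 or 3 or KO2 replicates 1 or 2 (highest adjusted p = 0.127, without KO1 replicate 1), NOP58 without KO1 replicates 1, 2 or 3 or KO2 replicates 1, 2 or 3 (highest adjusted p = 0.0888, without KO1 replicate 1), NOP56 without KO1 replicates 1, 2 or 3 (highest adjusted p = 0.0891, without KO1 replicate 1) and NIP7 without KO1 replicate 1 (adjusted p = 0.0629).

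For some members, genes nearby on the chromosome moved with them. Copy number was not measured, and its part was not tested. With the median difference of genes within 5 Mb subtracted, 10 of the 12 falls in KO2 kept their call, all but NOC3L and RRN3, and MYBBP1A lost its rise. In KO1 2 of 6 rises (NOL6 and WDR74) and 1 of 5 falls (NOLC1) kept theirs, and MYBBP1A, NHP2, NOP58, RRP9, FBL, NOC3L, RRP1B and UTP20 did not. Between the clones NOL6, NOLC1, NOP56 and RRN3 lost theirs, with a median of -0.46 for the genes around NOL6. In GENCODE 23 snoRNA genes lie inside 6 members, which are NCL, NOP56, NOP58, DKC1, GNL3 and WDR43. Of these hosts NOP56 and DKC1 fell in KO2, NOP58 rose in KO1, and NCL, GNL3 and WDR43 passed no test with all 9 libraries.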

How the data were processed

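The authors deposited 1 table of FPKM values for 9 libraries. CASAVA 1.6, HISAT2 2.0.5, featureCounts 1.5.0-p3 and hg38 are named in the submitters' processing notes, without their options. The strand setting and the annotation were not given in the sources used here. Each gene identifier is in GENCODE 29, which supplied positions and merged exon lengths. FPKM times length gave whole reads for 100.0% of values above 0 (tolerance 0.02 reads), and the scale of each library matched a size factor by the median of ratios. limma-voom on the recovered reads called 3107 genes higher and 2871 lower in KO1, and 2350 and 2625 in KO2.

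Values were taken as log2(FPKM + 1), which understates changes of low genes, and the 16426 genes whose mean reached 0.5 FPKM were fitted with limma 3.58.1 (R 4.3.3, trended empirical Bayes, all 9 libraries, group as the only term). Adjusted p-values are Benjamini-Hochberg over all fitted genes. The fitted members had at least 203 reads in every library. Intervals are 95%. The procedure was also run on simulated reads with known changes. These had no library that stood apart and no GC trend, so that run cannot show how the procedure handles either.

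Values per library are given for members called with a difference of at least 0.5, the highest member of each role, and NOP56 and NOP58, added after their values were seen. From each pathway list, genes among the 2 largest called rises and falls in a clone may be named. The members and lists were chosen with earlier results of these data known. Alternatives covered scaling, filters, pseudocount, test, threshold, block, weights, position and each library left out. Removing a GC and length trend was added after seeing the data. Protein sequences were not used here.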

Additional observations from a re-analysis of the deposited data

Results flagged for a closer look

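The direct test of KO2 against KO1 (limma, adjusted p under 0.05) called 14 of 39 members, where 30.9% of all genes were called. That number is near the share of all genes, and only the direction departed from it. Of the members 33.3% were lower and 2.56% higher, beside 16.4% and 14.5% of all genes. The log2 differences, KO2 minus KO1, were -0.89 in BYSL, -0.80 in NOL6, -0.74 in DKC1, -0.73 in RRP9, -0.73 in WDR74, -0.72 in DDX21, -0.69 in GAR1. They were -0.66 in RRN3, -0.66 in NOP14, -0.53 in NIP7, -0.45 in NOP58, -0.40 in NOP56, -0.29 in NOLC1 and, in the other direction, 0.55 in UTP20. In 8 of the 13 lower genes the difference from Vector passed in KO2 alone, and in NOL6, WDR74, RRP9 and NOP58 it passed in KO1 alone, as a rise. No group had enough libraries for a check of single outlying values.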

How the results depend on the processing

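None of the 38 called member differences changed sign in any of the 21 alternatives, and 674 of their 798 alternative values stayed on the same side of the threshold. In the order KO1 higher, KO1 lower, KO2 higher, KO2 lower and KO2 below KO1, the counts with all settings as described were 6, 5, 1, 12 and 13. They were 10, 13, 6, 20 and 23 without both libraries that stood apart, and 15, 13, 7, 20 and 26 with library weights, where calls over all genes also grew (to 34%, 31.6%, 30.6%, 30.7% and 31.7% from 17.4%, 16.7%, 12.9%, 15.0% and 16.4%). At an adjusted p under 0.01 they were 2, 2, 0, 7 and 8, beside 9.24%, 9.51%, 6.4%, 7.98% and 8.97% of all genes. With values rescaled to TPM they were 2, 8, 1, 13 and 10, beside 12.8%, 20%, 13.1%, 13.5% and 11.1% of all genes. Subtracting the neighbours' median gave 2, 2, 0, 11 and 10, beside 12.1%, 13.3%, 11.1%, 11.1% and 12.4%. Removing the GC and length trend gave 8, 9, 2, 18 and 19 and kept all 38 called differences. Over all genes these shares were 23.7%, 22%, 20.1%, 20.5% and 22.5%. With the replicate block the counts were 6, 3, 1, 11 and 12, beside 15.1%, 14.8%, 11%, 13.1% and 14.2% of all genes. The labels do not say whether same-numbered libraries belong together. Deviations of same-numbered libraries correlated from -0.20 to 0.14, and those of different-numbered libraries from -0.26 to 0.25. Deviations within a group sum to 0, so these values cannot decide whether libraries were paired. MYBBP1A was not called in KO2 without a filter or in a fit of the 2 groups compared, so KO2 higher was 0 in both. It was 1 with limma-voom on recovered reads. Over all genes 6.08%, 8.22% and 14.3% were higher in KO2 in the same order. UTP20 alone was higher in KO2 than in KO1 in every alternative. Leaving out 1 library gave 2 to 10 for KO1 higher, 2 to 8 for KO1 lower, 0 to 5 for KO2 higher (0 without any library but Vector replicate 3), 9 to 17 for KO2 lower and 9 to 19 for KO2 below KO1, with each highest count without Vector replicate 3. Calls over all genes also grew without Vector replicate 3, to 23.2%, 21.6%, 18.8%, 21% and 22.4%. KO1 higher was 2 or 3 without KO1 replicate 1 or 2 or Vector replicate 1. KO1 lower was 2 or 3 without any KO1 library or Vector replicate 1 or 2. All genes lost calls there too, for example to 11.2% higher and 11.4% lower in KO1 without KO1 replicate 2. Against Vector, MYC and NPM1 kept a negative sign throughout. The neighbour correction takes the median as known, so its p-values are too small by an amount not tested.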
